A study of Mus musculus with 4 samples.

Results

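Genomic imprinting leaves a gene active mainly from the allele of 1 parent, and many imprinted genes act on growth. The 10 imprinted growth-control genes described here are H19, Meg3, Dlk1, Peg3, Mest, Cdkn1c, Ndn, Plagl1, Grb10 and Snrpn. They were picked by gene symbol and not by a rule on their values, though with earlier results of these data known. All 10 were found among the 50593 genes of the table. RNA was from sciatic nerve of mice of strain 129S1/SvImJ, aged 6 months, and the labels list 2 samples in each of the 2 groups, while the methods give n = 4 and do not state whether that means each group or both together. HSF WT mice carry a heterozygous Hsf1 deletion and no TTR transgene. By the methods, HSF V30M mice also carry a heterozygous Hsf1 deletion and express human TTR V30M from a transgene, with their own Ttr gene null. Hsf1 encodes the heat shock factor 1, and TTR V30M is an amyloid-forming variant of transthyretin. No control without the Hsf1 deletion was part of the comparison. The promoter driving the transgene is not given in the sources used here.

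Imprinted genes lie in clusters in which a differentially methylated control region, marked in the egg or the sperm, sets which parental copy is read. Many paternally expressed members of such clusters favor growth, while several maternally expressed ones restrain it. Most of the genes are highly active in the fetus and the placenta and are turned down after birth, and some stay active in adult connective tissue, muscle, endocrine tissue and nerve. Of the 10 genes, H19, Meg3, Cdkn1c and Grb10 are known to be read from the maternal copy in most mouse tissues, and Dlk1, Peg3, Mest, Ndn, Plagl1 and Snrpn from the paternal copy. The allele in these nerves was not measured, since the table does not divide reads by parental origin.

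The promoters of the 3 genes that stand at the ends or at the hub of the results are shown first. Dlk1 had the highest and Plagl1 the lowest ratio between the groups, and Meg3 is the maternally expressed partner of Dlk1 in the same cluster. Each sequence is the 250 bases before an annotated start, 5′ to 3′ on the strand of the gene, from RefSeq on GRCm38.p6, with each CpG, the dinucleotide that carries imprinting methylation, in capitals. Dlk1 covers chr12:109452573-109452822, Meg3 covers chr12:109540746-109540995 and Plagl1 covers chr10:13090582-13090831, all on the plus strand.

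Dlk1: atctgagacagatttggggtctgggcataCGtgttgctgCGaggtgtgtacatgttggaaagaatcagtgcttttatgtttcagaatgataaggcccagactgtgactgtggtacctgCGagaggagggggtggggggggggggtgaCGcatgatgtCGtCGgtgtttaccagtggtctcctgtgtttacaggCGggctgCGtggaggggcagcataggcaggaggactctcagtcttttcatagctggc
Meg3: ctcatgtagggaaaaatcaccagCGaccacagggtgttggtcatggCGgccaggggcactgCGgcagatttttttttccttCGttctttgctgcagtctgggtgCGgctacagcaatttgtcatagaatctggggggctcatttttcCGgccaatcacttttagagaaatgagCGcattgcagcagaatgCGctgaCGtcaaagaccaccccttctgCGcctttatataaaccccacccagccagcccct
Plagl1: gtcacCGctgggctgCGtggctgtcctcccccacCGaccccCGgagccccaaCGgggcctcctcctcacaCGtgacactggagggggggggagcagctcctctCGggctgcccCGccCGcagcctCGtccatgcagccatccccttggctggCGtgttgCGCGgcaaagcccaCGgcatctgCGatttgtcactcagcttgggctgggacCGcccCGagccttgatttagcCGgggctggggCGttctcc

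The Dlk1 promoter held 8 CpGs, the Meg3 promoter printed above 10 and that of Plagl1 19. The median over all 32851 mouse promoters of the same length was 6. A further annotated Meg3 promoter, at chr12:109545148-109545397, held 0. RefSeq entries were found for 8 of the 10 genes, with 15 promoters among them. The upstream Grb10 promoter was the richest of these, with 40 CpGs, and 98.7% of all promoters held fewer. Snrpn had 4 annotated starts, with 2 to 4 CpGs each. The letters GGGGCCCC, which read the same on both strands and have been described as a sequence bound by the Plagl1 protein, stood in 1 of the 15 promoters, that of Peg3, and in 0.889% of all promoters. TATAAA on either strand stood in 2 of the 15, the Meg3 promoter printed above and 1 of Snrpn, and in 12.4% of all promoters. Such matches describe the letters of these windows and no binding was measured.

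The table holds 1 value per gene and group, in FPKM (fragments per kilobase of transcript, scaled to depth), which the authors' Cuffdiff run estimated over the libraries of the group. No value per mouse was used here, so no spread between mice and no test can be given, and every difference below is between 2 authors' values. Ratios are log2((HSF V30M + 1) / (HSF WT + 1)) unless called linear, and the added 1 shrinks the ratio of low genes. Among single-transcript genes, low values are whole multiples of 1 fragment. A fit to them that assumes 2 libraries per group put those of HSF V30M 1.18-fold and those of HSF WT 1.35-fold apart in depth. From this, each member stood for at least 160 fragments in HSF V30M and at least 57 in HSF WT. The intervals given are 95% counting intervals from the lowest fragment number. They cover counting error only and leave out the difference between mice. Mouse Ttr, null by design in HSF V30M, stood at 6.10 under the label HSF V30M and at 0 under the label HSF WT. Human and mouse transcripts are not separated in the table, so reads of the transgene and of Ttr cannot be told apart. Hsf1, by design deleted on 1 allele in both groups, stood at 7.94 under the label HSF V30M and 14.95 under the label HSF WT, a log2 ratio of -0.84, so its level was not equal in the 2 groups. Neither gene checks the labels, which are used here as given for every direction below. Schwann cell markers were detected in both groups, with Mbp, which encodes myelin basic protein, at 3854 for HSF V30M and 3441 for HSF WT. Where a pair of values is given below without its groups, HSF V30M comes first.

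All 10 imprinted genes reached a mean FPKM of 1. With the groups as labelled, 8 of them were higher in HSF V30M than in HSF WT and 2 were lower. Dlk1 alone was past 1.5-fold, higher in HSF V30M, and none was past 1.5-fold lower. Over the 15620 genes that reached this mean, 16.7% were past 1.5-fold, 8.22% higher and 8.44% lower, so that 1 of 10 is near the share of all genes. The median log2 ratio of the 10 was 0.15, beside 0.00 over all genes, and 7 of the 10 lay within 0.25 of 0. Among the 10329 genes at the same levels, with a mean FPKM between those of Mest and Cdkn1c, the middle 50% of log2 ratios ran from -0.20 to 0.21. The counting interval of the linear ratio left out 1 for 5 of the 10, beside 47.1% of the 14828 genes with at least 1 fragment in both groups and 50.6% of the 9856 such genes at the levels of the members, so that this count too is near the share of all genes. Summed over the 10 genes, the FPKM came to 202.0 for HSF V30M and 183.7 for HSF WT.

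**Figure D1:**
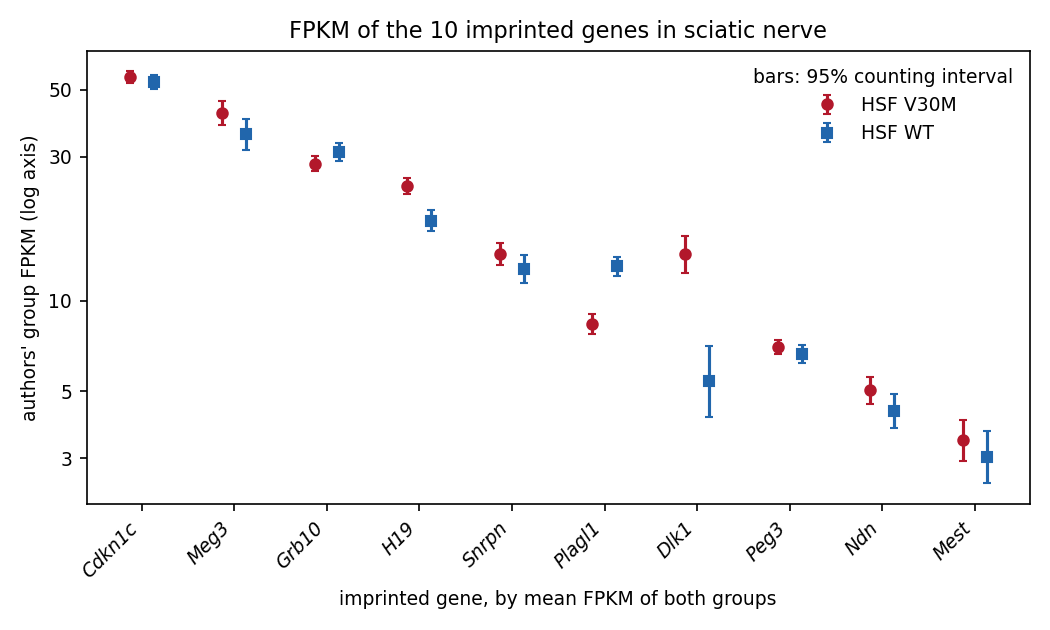
Authors' group FPKM (log axis) of the 10 imprinted genes in HSF V30M (circles) and HSF WT (squares), ordered by the mean of both groups; bars are 95% counting intervals and do not show the spread between mice. The pairs run from above 50 for Cdkn1c to near 3 for Mest, and the intervals of the 2 groups lie clearly apart for H19, Plagl1 and Dlk1.

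The genes covered a 16.0-fold range of FPKM in HSF V30M and a 17.5-fold range in HSF WT. The maternally expressed genes were the 4 highest in both groups, in the order Cdkn1c, Meg3, Grb10, H19. In HSF V30M the order went on with Snrpn, Dlk1, Plagl1, Peg3, Ndn and Mest. In HSF WT, Plagl1 stood 5th, followed by Snrpn, Peg3, Dlk1, Ndn and Mest. Neighbors in this order whose counting intervals overlapped were Snrpn and Dlk1 in HSF V30M, and Meg3 and Grb10, Plagl1 and Snrpn, Peg3 and Dlk1, and Dlk1 and Ndn in HSF WT. Placed among all genes that reached a mean FPKM of 1, Cdkn1c was above 90.6% of them and Mest above 24.5%.

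Dlk1 (ENSMUSG00000040856) encodes a membrane protein of the Notch ligand family, also known as preadipocyte factor, which is shed from cells and holds back the maturation of fat cells. It is annotated on the plus strand at chr12:109452823-109463336 with 10 transcripts. HSF V30M nerves gave an FPKM of 14.25 (counting interval 12.4 to 16.3) and HSF WT nerves 5.43 (4.10 to 7.05). The log2 ratio was 1.25, or 2.37-fold, and the linear ratio was 2.62 (1.94 to 3.59). Dlk1 was thus the member farthest from equality, with the group labelled HSF V30M higher and the intervals well apart. Dlk2, its relative that is not imprinted, was at 0.60 and 0.211. The fragments of Dlk1 in HSF WT numbered 57 to 499 according to the transcript taken, and the lower bound is the lowest of the 10.

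Cells in which a gene is read can differ in number between nerves. In a whole nerve, fewer cells of a type and less RNA per cell cannot be told apart. Of all genes with a mean of at least 1, 8.22% were past 1.5-fold higher in HSF V30M and 8.44% lower. Adipocyte markers, among them adiponectin, were lower in HSF V30M for 8 of 8 genes, 3 of them past 1.5-fold, with sums of FPKM of 2580 for HSF V30M against 3525 for HSF WT. Skeletal muscle markers were lower for 8 of the 8 with a mean of at least 1, all past 1.5-fold, with sums of 47.8 and 178 over the 11 listed. The 4 satellite cell markers, which include Pax7 and Myod1, all had a mean FPKM under 1, with sums of 0.09 and 0.0504. Fibroblast markers were lower for 6 of 8, 2 of them past 1.5-fold, with sums of 1005 and 1149. Perineurium markers were higher for 4 of 6, 1 of them past 1.5-fold, with 560 and 504. Schwann cell markers were higher for 7 of 10, with 1 of them past 1.5-fold. The markers of erythrocytes were all higher, 5 of 6 past 1.5-fold, with sums of 291 and 101. Those of neutrophils were higher for 5 of the 6 with a mean of at least 1, all 5 past 1.5-fold. The other 1 was past 1.5-fold lower, and the sums over the 7 listed were 105 and 31.1. Macrophage markers were lower for 5 of 6, 2 of them past 1.5-fold, with sums of 76.8 and 109. B cell markers were lower for the 4 with a mean of at least 1, all past 1.5-fold, with 2.23 and 21.2 over the 5 listed. Endothelium markers were split evenly, 1 of them past 1.5-fold higher, with sums of 209 and 171. Those of smooth muscle and pericytes were also split evenly, 1 past 1.5-fold higher and 2 lower, with 716 and 1331. Single genes set the gap of these sums. In endothelium Cldn5 was at 100 and 57.9. In smooth muscle and pericytes Tagln was at 472 and 1102, while Acta2, the next highest, was at 147 and 137. The part of these cell types in the ratios of the imprinted genes was not tested.

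Dlk1 shares its cluster on chromosome 12 with Meg3, Rtl1, Rian, Mirg and Dio3. Meg3 (ENSMUSG00000021268), a long noncoding RNA read from the maternal copy, is annotated on the plus strand at chr12:109541001-109571726 with 11 transcripts. Its level came to 41.98 (38.2 to 46.0) FPKM for HSF V30M and 35.66 (31.6 to 40.1) for HSF WT, a log2 ratio of 0.23 and a linear ratio of 1.18 (1.01 to 1.37). The number of fragments is known only broadly, since its basic transcripts run from 706 to 14548 bases. The FPKM of Dlk1 was 0.339 of that of Meg3 for HSF V30M and 0.152 for HSF WT, 2.23-fold apart. Rian, the noncoding RNA that hosts a group of small nucleolar RNAs, stood at 33.61 and 26.00, a log2 ratio of 0.36, with an interval of the linear ratio from 0.863 to 1.96. Rian relative to Meg3 was 0.801 and 0.729. Mirg, the host of a microRNA cluster, was at 3.83 and 3.58. Rtl1, a paternally expressed gene derived from a retrotransposon and known for its role in placenta and muscle, was at 1.09 and 0.815, and Dio3, the thyroid hormone-inactivating deiodinase, at 0.64 and 0.426, both with a mean under 1. All 6 genes of the cluster thus had the higher value in HSF V30M, whichever parental copy they are known to be read from. Over the 15620 genes with a mean of at least 1, 7876 were higher and 7744 lower. For Rian, Mirg (0.762 to 1.51) and Dio3 (0.614 to 4.02) the interval of the linear ratio included 1. Dlk1 alone of the cluster was past 1.5-fold.

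**Figure D2:**
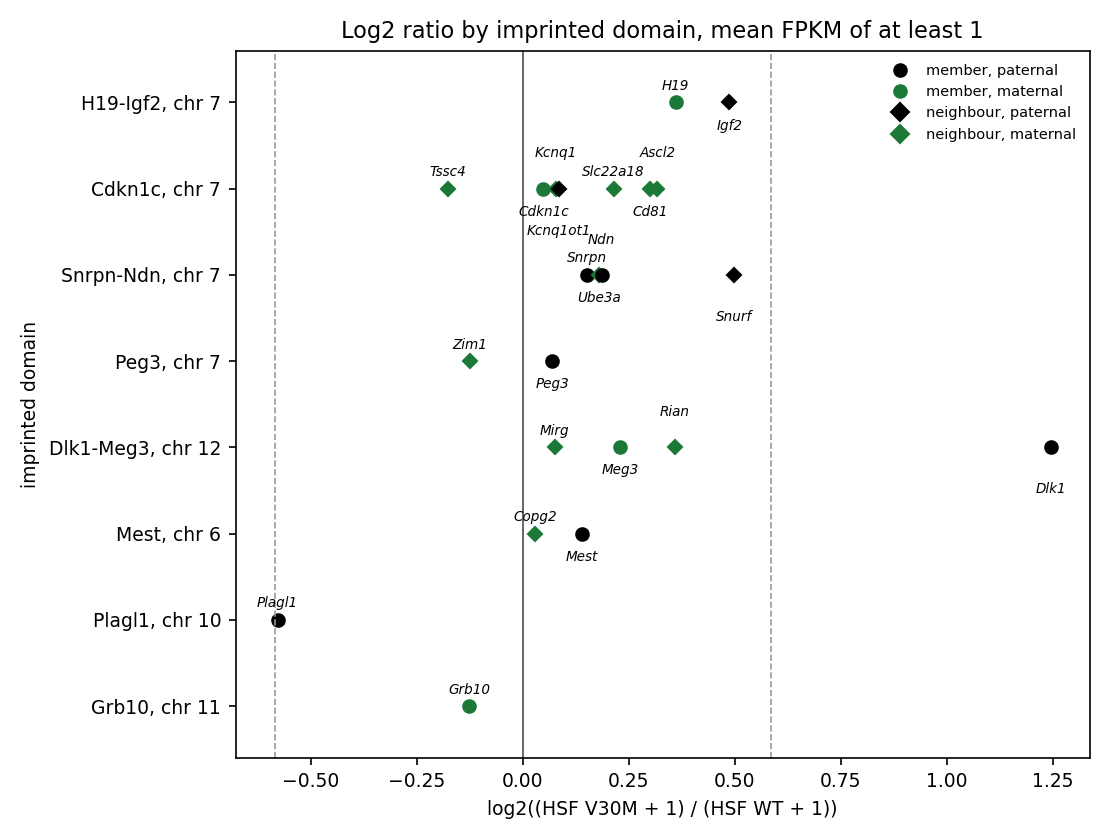
Log2 ratio of the members (circles) and their cluster neighbors (diamonds) with a mean FPKM of at least 1, by imprinted domain; black is the paternal and green the maternal copy, dashed lines mark 1.5-fold. Dlk1 lies at 1.25, apart from Mirg, Meg3 and Rian of its own domain at 0.08 to 0.36, while Plagl1 lies at -0.58, just inside the line.

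Plagl1 (ENSMUSG00000019817), also known as Zac1, encodes a zinc finger transcription factor that halts the cell cycle and acts on other imprinted genes. It is annotated on the plus strand at chr10:13060504-13131694 with 25 transcripts. In FPKM, HSF V30M stood at 8.39 (7.76 to 9.06) and HSF WT at 13.01 (12.1 to 14.0). The linear ratio of HSF WT over HSF V30M was 1.55 (1.39 to 1.73), while on the scale with 1 added the log2 ratio was -0.58, or 1.49-fold. Plagl1 therefore sat at the 1.5-fold limit, inside it with 1 added and outside it without. It was the member lowest in the group labelled HSF V30M relative to the other group. Within its locus, the small noncoding gene Gm27741 on the opposite strand was at 0.74 and 0, and whether the libraries kept the strand is not given in the sources used here. Its paralogs that are not imprinted gave no common direction. Plag1, an oncogene of salivary gland tumors, was at 2.68 and 2.05, and Plagl2 was at 3.59 and 4.14.

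Several other imprinted genes are known as targets of Plagl1 in mouse cells, among them H19, Igf2, Cdkn1c and Dlk1. H19 (ENSMUSG00000000031), an abundant fetal noncoding RNA that is the precursor of miR-675, is annotated on the minus strand at chr7:142575529-142578143. HSF V30M nerves gave an FPKM of 23.94 (22.5 to 25.4) and HSF WT nerves 18.42 (17.0 to 20.0). The log2 ratio was 0.36 and the linear ratio 1.30 (1.17 to 1.44). Its neighbor Igf2, the fetal insulin-like growth factor read from the paternal copy, stood at 30.02 and 21.13, a log2 ratio of 0.49 and a linear ratio of 1.42 (1.16 to 1.74). H19 and Igf2 compete for the same enhancers in the embryo. Both were higher in HSF V30M, and H19 relative to Igf2 was 0.797 and 0.872. Ins2, the insulin gene next to Igf2, was listed at 0 in both groups.

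Cdkn1c (ENSMUSG00000037664) encodes p57, an inhibitor of cyclin-dependent kinases and a brake on fetal growth. It is annotated on the minus strand at chr7:143458339-143461050. Its level came to 55.13 (52.7 to 57.6) FPKM for HSF V30M and 53.26 (50.5 to 56.1) for HSF WT, with a log2 ratio of 0.05 and a linear ratio of 1.04 (0.966 to 1.11). Cdkn1c was both the highest of the 10 and the closest to equality. An antisense gene in its locus, Gm44732, was at 0 and 0.325. None of the other 6 genes of its domain with a mean of at least 1 was past 1.5-fold. Kcnq1ot1, the paternally expressed noncoding RNA that silences the domain in cis, was at 1.51 and 1.37. Cd81, which encodes a tetraspanin, was at 311 and 252, and Tssc4 at 12.8 and 14.6. Kcnq1, a potassium channel, was at 2.26 and 2.09, and Slc22a18 at 2.54 and 2.05. Ascl2, a transcription factor of the placenta, was at 1.22 and 0.781. Phlda2, a placental growth brake, was at 0.48 and 0. The non-imprinted inhibitors of the same family, Cdkn1a (p21) and Cdkn1b (p27), stood at 126 and 155, and at 78.6 and 80.3. In both groups, the FPKM of Cdkn1c was thus below that of its 2 relatives.

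Grb10 (ENSMUSG00000020176) encodes an adaptor protein that binds the insulin and IGF1 receptors and dampens their signal. It is annotated on the minus strand at chr11:11930508-12038683, where most tissues read the maternal copy and neurons the paternal one. In FPKM, HSF V30M stood at 28.49 (26.8 to 30.2) and HSF WT at 31.17 (29.2 to 33.3), a log2 ratio of -0.13 and a linear ratio of 0.914 (0.836 to 0.999). Grb10 was thus, with Plagl1, 1 of the 2 members lower in the group labelled HSF V30M. Its non-imprinted relative Grb14 was at 25.7 and 26.3. Grb7 and Ddc, the neighbor of Grb10, had means under 1.

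The pathway on which Grb10 and Igf2 act, insulin and IGF signaling, was read over 15 listed genes, of which 14 had a mean of at least 1. The list also holds Igf2bp1, Igf2bp2 and Igf2bp3, which encode mRNA-binding proteins and not parts of the signaling pathway. They are included in the counts and the median. Of the 14, 9 were higher in HSF V30M and 5 lower, and the median log2 ratio was 0.27. Past 1.5-fold were 2 of the 14, both higher in HSF V30M, beside 8.22% of all genes in that direction. Irs2, an adaptor of the insulin receptor, was at 13.5 and 8.46. Igfbp2, which binds IGF2, was at 2.20 and 0.488, of which the latter stands for only a few fragments. The receptor gene Igf1r was at 22.0 and 15.2 and Insr at 20.6 and 17.5, whereas the ligand gene Igf1 was at 38.2 and 45.4. Igf2r, the imprinted receptor that clears IGF2, was at 8.48 and 9.23.

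**Figure D3:**
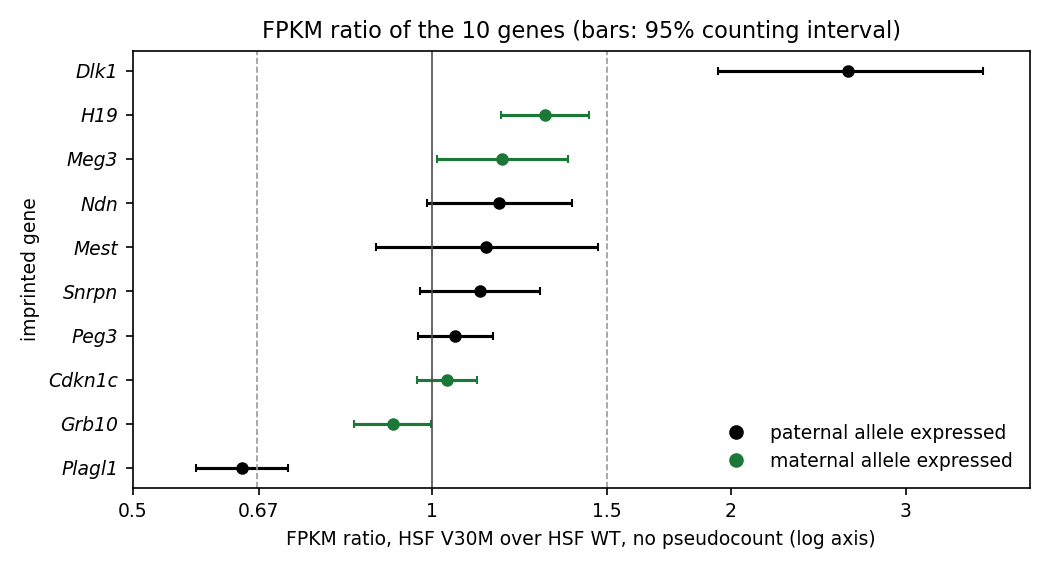
Linear FPKM ratio of HSF V30M over HSF WT (log axis, no value added) for the 10 genes with 95% counting intervals, which leave out the spread between mice; black is paternal, green maternal, and dashed lines mark 1.5-fold in each direction. The intervals of Dlk1, H19, Meg3, Grb10 and Plagl1 leave out 1, those of Meg3 and Grb10 barely.

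The other paternally expressed members lay close to equality. Snrpn (ENSMUSG00000102252) encodes the splicing protein SmN, is read in neural tissue and heart, and is annotated on the minus strand at chr7:59982495-60140219. HSF V30M nerves gave an FPKM of 14.30 (13.1 to 15.6) and HSF WT nerves 12.78 (11.5 to 14.2), a log2 ratio of 0.15. Snurf, which shares transcripts with Snrpn, was at 95.49 and 67.27, a log2 ratio of 0.50. The interval of its linear ratio, from 0.822 to 2.52, included 1. The annotated Snurf transcript has only 216 bases, so its FPKM depends heavily on the length correction, and reads of the 2 genes cannot be told apart with certainty. Added together, Snrpn and Snurf stood at 109.8 and 80.1, most of it from Snurf. Snrpb, the non-imprinted relative of Snrpn that other tissues use, was at 55.3 and 52.8.

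Ndn (ENSMUSG00000033585) encodes necdin, a growth suppressor of neurons in the MAGE family, and lies in the same chromosome 7 domain on the plus strand at chr7:62346569-62350262. Its level came to 5.04 (4.54 to 5.58) FPKM for HSF V30M and 4.31 (3.77 to 4.90) for HSF WT, a log2 ratio of 0.19. Magel2, Mkrn3 and Peg12 of this domain had means under 1 in these nerves. Magel2 was at 0.02 and 0, while Mkrn3, at 0.37 and 0.488, and Peg12, at 0.28 and 0.291, were lower in HSF V30M. Ube3a, a ubiquitin ligase read from the maternal copy in neurons, was at 25.4 and 22.3. The MAGE family genes Maged1 and Maged2, which are not imprinted, were at 86.6 and 116, and at 43.5 and 42.0. Snrpn, Ndn, Snurf and Ube3a, the 4 genes of the domain with a mean of at least 1, were all higher in HSF V30M, none past 1.5-fold.

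Peg3 (ENSMUSG00000002265), a zinc finger gene linked to maternal behavior and fetal growth, lies on the minus strand at chr7:6703892-6730431. In FPKM, HSF V30M stood at 7.02 (6.64 to 7.42) and HSF WT at 6.64 (6.21 to 7.10), a log2 ratio of 0.07. Of its neighbors, Zim1 was at 1.46 and 1.68, while Usp29 and Zfp264 had means under 1. Mest (ENSMUSG00000051855), also known as Peg1, encodes a protein of the hydrolase fold linked to growth of mesoderm and fat, and lies on the plus strand at chr6:30723547-30748465. HSF V30M nerves gave an FPKM of 3.45 (2.94 to 4.03) and HSF WT nerves 3.04 (2.48 to 3.69), a log2 ratio of 0.14. Copg2, a coat protein gene that overlaps Mest on the opposite strand, was at 12.49 and 12.22, above Mest in both groups. Without strand, reads from the overlap of Mest and Copg2 cannot be told apart. Klf14, a further neighbor of Mest, was at 0 and 0.0395. For Snrpn, Ndn, Peg3, Mest and Cdkn1c, the counting interval of the linear ratio included 1.

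Grouped by the copy known to be read, the 4 maternally expressed members had, with 3 of them higher in HSF V30M, a median of 0.14 on the log2 scale, and the 6 paternally expressed ones, with 5 higher, a median of 0.15. The members at both ends, Dlk1 and Plagl1, are known as paternally expressed. Of the 8 non-imprinted relatives of the members with a mean of at least 1, 3 were higher and 5 lower, none past 1.5-fold, with a median of -0.03.

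A further 54 imprinted genes were listed, and 36 of them had a mean FPKM of at least 1. Of these, 20 were higher in HSF V30M and 16 lower, with a median log2 ratio of 0.05. Past 1.5-fold were 2, both lower, beside 8.44% of all genes in that direction, and 0 higher, beside 8.22%. Nnat, which encodes neuronatin, a small membrane protein of brain, pancreas and fat, was at 17.3 and 61.2, a log2 ratio of -1.77 and a linear ratio of 0.282 (0.211 to 0.374). Nnat lies within Blcap, on the opposite strand, and Blcap was at 27.35 and 33.06. Without strand, reads from any exons that Nnat and Blcap share cannot be told apart. Only the annotated spans were compared, and overlap of exons was not examined. The FPKM of Nnat was thus 0.633 of that of Blcap for HSF V30M and 1.85 of it for HSF WT. Airn, the paternally expressed noncoding RNA that silences Igf2r, was at 6.36 and 11.6, a log2 ratio of -0.77 with a wide interval of the linear ratio from 0.335 to 0.891. Airn and Igf2r overlap in part of their annotated spans, and without strand reads from any exons shared there cannot be told apart.

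The 5 highest of the further imprinted genes were Dcn, Gnas, Cd81, Gatm and Snurf. Dcn, a collagen-binding proteoglycan made by fibroblasts and imprinted mainly in placenta, was at 1331 and 1320. Gnas, the stimulatory G protein alpha subunit gene, was at 370 and 278, and Gatm, an enzyme of creatine synthesis, at 211 and 217. Over all 64 imprinted genes read here, 46 had a mean of at least 1, of which 28 were higher and 18 lower. Among the 46, 1 was past 1.5-fold higher and 2 lower, beside 8.22% and 8.44% of all genes.

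**Figure D4:**
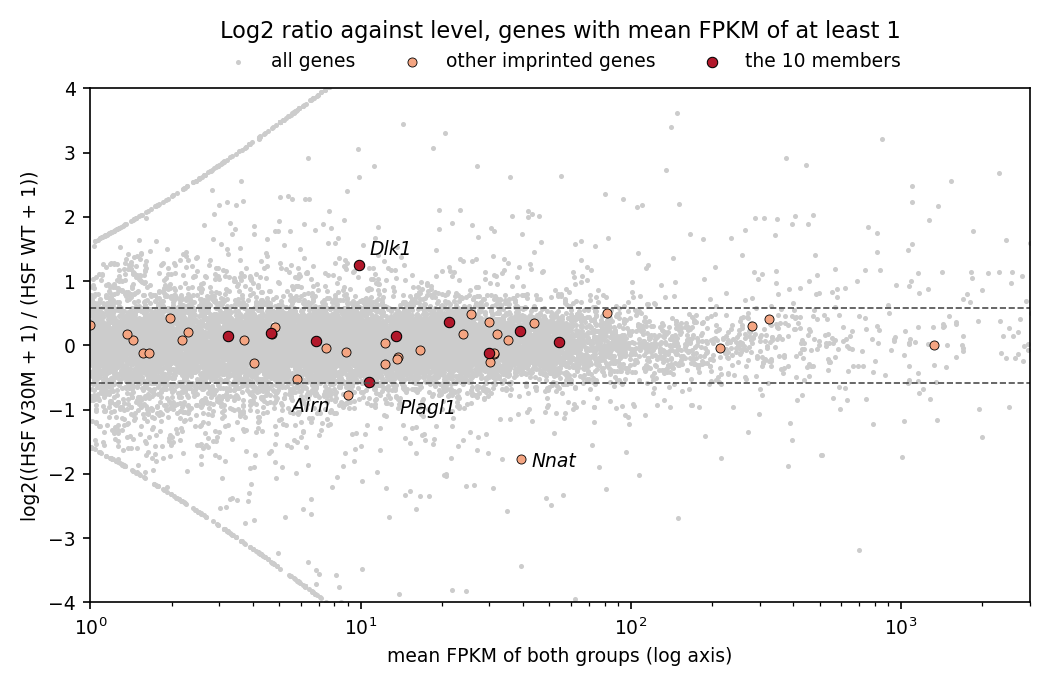
Log2 ratio with 1 added against the mean FPKM of both groups (log axis) for all genes with a mean of at least 1 (gray), the further imprinted genes (orange) and the 10 members (red); dashed lines mark 1.5-fold, and genes beyond 4 in either direction or past the highest mean drawn lie outside the frame. Dlk1 at 1.25 is above and Nnat at -1.77 and Airn at -0.77 are below the lines, and the other members lie inside them.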

How the data were processed

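RNA of sciatic nerve was isolated with RNeasy columns, converted to cDNA and sequenced on the Ion Torrent platform, and the authors had reads aligned to GRCm38, the C57BL/6J genome, whereas the mice were of strain 129S1/SvImJ. STAR, Cufflinks and Cuffdiff are named in the submitters' processing notes. Their versions, the annotation and the strand setting are not given in the sources used here. The authors deposited 1 Cuffdiff table with 1 FPKM value per gene and group. Its columns of log2 fold change, test statistic, p-value and q-value hold the authors' own comparison and were not used. Decimal commas were replaced by points, and 23 genes with too many alignments were left out. The HSF V30M values are rounded to 2 decimals.

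Log2((HSF V30M + 1) / (HSF WT + 1)) was computed with Python 3.11.15, numpy 2.4.6 and pandas 2.3.3, and no test was made. Genes that reached a mean FPKM of 1 were counted as past 1.5-fold in either direction. The worth of 1 fragment was fitted to FPKM times transcript length less 195 bases. Candidates were single-transcript genes of 300 to 8000 bases alone in their locus (800 genes kept in HSF V30M, 1826 in HSF WT). Only low values were kept, and in HSF V30M only genes short enough that rounding changed the product little. The HSF V30M fit thus rests on the shorter of these transcripts. The worth was 0.0399 and 0.0471 in the 2 libraries of HSF V30M and 0.0485 and 0.0653 in those of HSF WT. Fragment numbers run between those of the shortest basic transcript at the larger worth and the longest at the smaller. Counting intervals (exact Poisson for 1 value, Clopper-Pearson for a ratio, scipy 1.17.1) use the lowest number. The fit was run on data simulated from its own model, and the counts on values with set changes and no noise. These runs check the code only, and not the 195 bases or the number of libraries. Positions are from GENCODE M21 on GRCm38.

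Named were all members, their cluster neighbors, their non-imprinted relatives, other imprinted genes past 1.5-fold or among the 5 highest, and insulin and IGF genes past 1.5-fold. Igf1, Igf1r, Insr, Igf2r, Blcap, Ttr, Hsf1, Mbp, Gm27741 and Gm44732 were named outside this rule, after their values were seen. The members and lists were chosen with earlier results of these data known. The alternatives were other pseudocounts, median-of-ratios scaling, other minimum means, a fold over 2, a minimum transcript length and leaving out genes that share a locus. One item of a marker list is not reported here.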

Additional observations from a re-analysis of the deposited data

How the results depend on the processing

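The count of members past 1.5-fold was 1, and 2 with a pseudocount of 0.1 and with no pseudocount, where Plagl1, lower in HSF V30M, joined Dlk1. With these settings the log2 ratio of Dlk1 was 1.38 and 1.39, that of Plagl1 was -0.63 with either, and 21.7% and 22.5% of all genes were past 1.5-fold. The count of further imprinted genes past 1.5-fold was 2, and became 4 with a pseudocount of 0.1. With a fold over 2 it was 1, beside 7.92% of all genes. Among the 10 left without genes sharing a locus it was 0, since Nnat and Airn share theirs. The median log2 ratio of the members lay between 0.11 and 0.17 under the alternatives, and that of the further imprinted genes between -0.04 and 0.09, lowest with a mean FPKM of at least 5. Of 30 alternative values of single members, 26 moved little, 4 moved (Dlk1 and Plagl1 as above) and 0 changed sign. The settings without a pseudocount, with a minimum transcript length and without genes sharing a locus were chosen after seeing the data. No paired analysis was possible because no values of single mice were used here, and for the same reason no replicate could be left out. Depth limits mainly Mest and Dlk1 in HSF WT, with at least 102 and 57 fragments.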

Other observations

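The clusters of Dlk1 and of Snrpn also hold small RNA genes, which were looked at after their values were seen. Between Dlk1 and Mirg on chromosome 12, 65 of the 66 microRNA genes in the table were listed at 0 in both groups and 1 was above 0 in HSF V30M only. Of the 23 small nucleolar RNA genes there, 16 were at 0 in both groups, 4 were above 0 in both, 2 in HSF V30M only and 1 in HSF WT only. AF357425, the highest of these, stood at an FPKM of 4287 (HSF V30M) and 3203 (HSF WT), and DQ267100 was at 556 and 141. Between Ube3a and Snrpn on chromosome 7, 199 of 210 small nucleolar RNA genes were at 0 in both groups, and Gm26097 and Gm25615 were above 0 in both, at 193 and 143 and at 18.0 and 18.8. A further 8 were above 0 in HSF V30M only, among them Snord64 at 49.4, and 1 in HSF WT only. Of those in HSF V30M only, Snord116l12, Snord116l14, Gm25074 and Gm24518 all stood at 18.0, the same value as Gm25615. The matching share over all small RNA genes was not computed, so no difference between the groups is read from these counts. The small RNA genes are so short that the length correction sets much of their FPKM, and fragments of the host RNA and of the small RNA cannot be told apart. Mir675 in H19, Mir770 in Meg3 and Mir335 in Mest were listed at 0 in both groups, and mature microRNAs are shorter than such libraries capture well.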
